A study of Mus musculus with 16 samples.

Results

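The endoplasmic reticulum (ER) quality control genes of mouse colon organoids were described across 4 groups of arrays, as a list of 36 genes that bring proteins into the ER, fold them there, remove those that fail to fold and sense when folding falls behind. The genes were given by symbol, and each was read from its brightest probe set. Of the 36, 34 had a named probe set among the 18850 named genes of the array. Manf, a secreted survival factor of the ER, and Pdia4, a protein disulfide isomerase, had none and were not analysed here. All 34 had a single probe set and passed the filter on dim genes. The signal was above the 40th percentile of the array on all 16 arrays for 33 of them and on 15 arrays for Srprb.

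Proteins bound for secretion or for membranes enter the ER through the Sec61 channel as they are made, lose their signal peptide, receive sugars and fold with the help of chaperones and disulfide isomerases. Chains that do not fold are sent back to the cytosol and destroyed, a route called ER-associated degradation. When unfolded chains build up, the sensors IRE1, PERK and ATF6 start the unfolded protein response, in which XBP1 and ATF6 raise transcription of chaperone and degradation genes. The colon epithelium holds goblet cells, which make large amounts of mucin and carry a heavy folding load.

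The 16 arrays formed 4 groups of 4, from organoids, which are cultured balls of colon epithelium, all grown in ENR medium. The groups were mutant organoids given tumour necrosis factor alpha (TNFa), an inflammatory cytokine, at 50 ng/ml for 12 h, untreated mutant organoids, wild-type (WT) organoids given the same TNFa treatment, and untreated WT organoids. The labels of the mutant contradict each other: the genotype label is "ATF2 fl/fl / ATF7 KO", whereas the description and the design text give ATF2 as knocked out and ATF7 as floxed. Neither a Cre driver nor recombination of the floxed allele is named anywhere in the labels, so the mutant is treated as 1 genotype of unknown residual function. ATF2 and ATF7 are related stress-kinase targets of the AP-1 and CREB families of transcription factors. The question was how the ER genes stand in the TNFa response and in the mutant. Whether the numbered samples are separate animals or cultures is not stated, and p-values here then reflect the spread among the arrays, which may be technical.

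All values are log2 signals, in which a difference of 1 is a doubling, and a gene was called at an adjusted p under 0.05 in limma over 11766 tested genes. Array medians lay between 7.02 and 7.11. Array WT + TNFa 2 stood apart: it correlated with its group at 0.977 on average, where the other 3 arrays reached 0.986 to 0.988, and its median was the highest of the 16. It was the highest array of its group for 14 of the 34 ER genes and the lowest for 13. Because 1 fit shared its estimate of the spread over all groups, leaving out an array also moved the p-values of comparisons that do not hold it. The differences in those comparisons stayed the same. Of 49 called results over the ER genes and the further pathway lists described below, 42 kept the call without WT + TNFa 2. The 7 that lost it were the WT TNFa effects on Hyou1, Sec23b, Sar1a and Txndc12, the averaged TNFa effect on Fkbp11 (0.19 log2, adjusted p = 0.0677), the genotype effect on Fkbp9 with TNFa and the averaged genotype effect on Hspa5. The 7 colon epithelial markers were above the 40th percentile on all 16 arrays. Of 5 plasma cell markers on the array, 4 (Jchain, Mzb1, Tnfrsf17 and Cd79a) were below it on all 16 and the fifth, Sdc1, is also made by epithelium, and the 3 endothelial markers were below it on all 16. Of 4 fibroblast markers, 2 were below it on all 16 and 1, Col1a1, was above it on all 16, at group means of 8.07 to 8.19 log2, with a summed signal of the list of 8.52 to 8.87 in mutant with TNFa and 8.71 to 8.93 in untreated mutant, and of 8.66 to 8.90 in WT with TNFa and 8.71 to 8.88 in untreated WT. Of 4 immune cell markers, 2 were below it on all 16 and 1, Cd14, a receptor partner for bacterial lipopolysaccharide, was above it on all 16. Cd14 averaged 9.42 log2 in mutant with TNFa and 8.92 in untreated mutant, and 9.63 in WT with TNFa and 9.07 in untreated WT, and it rose by 0.50 log2 in mutant (adjusted p = 2.2e-06) and by 0.55 in WT (adjusted p = 7.0e-07). It was 0.20 log2 lower in mutant than in WT with TNFa (adjusted p = 0.0287). The part of such cells in the results was not tested. In bulk samples, fewer cells of a type and less RNA per cell cannot be told apart. Atf2 averaged 10.12 ± 0.01 log2 in mutant organoids with TNFa, 10.15 ± 0.03 in untreated mutant, 10.18 ± 0.02 in WT with TNFa and 10.16 ± 0.14 in untreated WT (SD, n = 4 each). Where its probe set lies within the gene is unknown here, so this checks neither allele, and Atf7 had no named probe set. The treatment itself was visible: the summed signal of 5 NF-kB targets lay between 12.59 and 12.72 log2 in mutant with TNFa and 10.35 and 10.65 in untreated mutant, and between 12.55 and 12.70 in WT with TNFa and 10.50 and 10.66 in untreated WT. Of the 5, Cxcl1 was below the 40th percentile on all 16 arrays. Ccl20 was the brightest with TNFa, at means of 11.53 log2 in mutant and 11.45 in WT, against 7.29 and 7.30 untreated.

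Many of the ER genes carry a known control sequence in their promoter, the ER stress response element, to which ATF6 binds together with NF-Y. Promoter sequences of 28 of the 36 genes were found in RefSeq (GRCm38.p6, 250 bases before to 50 after the start), among 32851 promoters of 27025 genes. None was found there for Hyou1, Ern2, Derl1, Sec61a1, Ssr2, Spcs3, Sec11c and Manf. The element, searched on both strands as CCAAT and CCACG with 9 bases of any kind between them, was present in 9 of the 28 (32.1%) and in 0.137% of all genes with a promoter there. The matches are printed 5′ to 3′ on the strand of the element, with its outer blocks in capitals, because they show how the 9 genes share these blocks and differ between them.
Hspa5: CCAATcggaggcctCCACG
Hsp90b1, nearer the start: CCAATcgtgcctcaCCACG
Hsp90b1, farther from the start: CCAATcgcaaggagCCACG
Dnajc3: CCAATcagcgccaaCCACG
Creld2: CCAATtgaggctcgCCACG
Calr: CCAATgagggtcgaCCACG
Canx: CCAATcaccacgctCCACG
Pdia6: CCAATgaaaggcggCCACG
Syvn1: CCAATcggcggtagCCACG
Derl3: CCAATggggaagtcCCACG
These sites lie at chr2:34772025-34772043 (Hspa5), chr10:86705533-86705551 and chr10:86705638-86705656 (Hsp90b1), chr14:118937827-118937845 (Dnajc3), chr15:88819520-88819538 (Creld2), chr8:84847075-84847093 (Calr), chr11:50325800-50325818 (Canx), chr12:17266491-17266509 (Pdia6), chr19:6046532-6046550 (Syvn1) and chr10:75893242-75893260 (Derl3). In Creld2, Calr, Derl3 and the Hsp90b1 site nearer the start the element ran opposite to the gene. A second form of the element, ATTGG and CCACG with 1 base of any kind between them, was present in 2 of the 28 (7.14%), against 0.0444% of all genes.
Dnajb11: ATTGGcCCACG
Herpud1: ATTGGgCCACG
The Dnajb11 match lies at chr16:22857852-22857862, past the start of the gene, and the Herpud1 match at chr8:94386377-94386387. The letters of the cAMP response element that ATF2 family members bind, TGACGTCA, were in 0 of the 28 promoters and in 2.03% of all genes, and TGACGTGG, the core of the element that XBP1 binds, was in 0 of the 28 and in 0.714% of all genes. These matches describe the printed windows alone. Only the exact letters were counted, so near matches, such as TGACGTGA in the Hspa5 window below, were left out.

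The whole windows of 2 genes that are called below in an averaged comparison are printed for comparison. They are Hspa5, with the element in capitals, and Sec61b, whose window held none of the 4 motifs. For Hyou1 and Sec11c, called below with TNFa in both genotypes, there was no promoter sequence to print.
Hspa5 promoter, chr2:34771840-34772139, plus strand: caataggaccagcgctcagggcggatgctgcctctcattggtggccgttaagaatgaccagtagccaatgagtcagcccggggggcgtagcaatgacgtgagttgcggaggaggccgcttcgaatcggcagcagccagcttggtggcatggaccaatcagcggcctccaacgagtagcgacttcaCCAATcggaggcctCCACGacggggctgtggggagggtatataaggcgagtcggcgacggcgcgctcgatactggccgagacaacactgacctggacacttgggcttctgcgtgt
Sec61b promoter, chr4:47474411-47474710, plus strand: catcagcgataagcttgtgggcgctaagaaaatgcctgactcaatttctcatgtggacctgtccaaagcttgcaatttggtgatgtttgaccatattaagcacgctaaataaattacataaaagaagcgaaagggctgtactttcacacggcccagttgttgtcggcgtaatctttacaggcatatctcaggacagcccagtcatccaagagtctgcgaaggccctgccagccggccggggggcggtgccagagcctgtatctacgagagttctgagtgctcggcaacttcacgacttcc

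**Figure D1:**
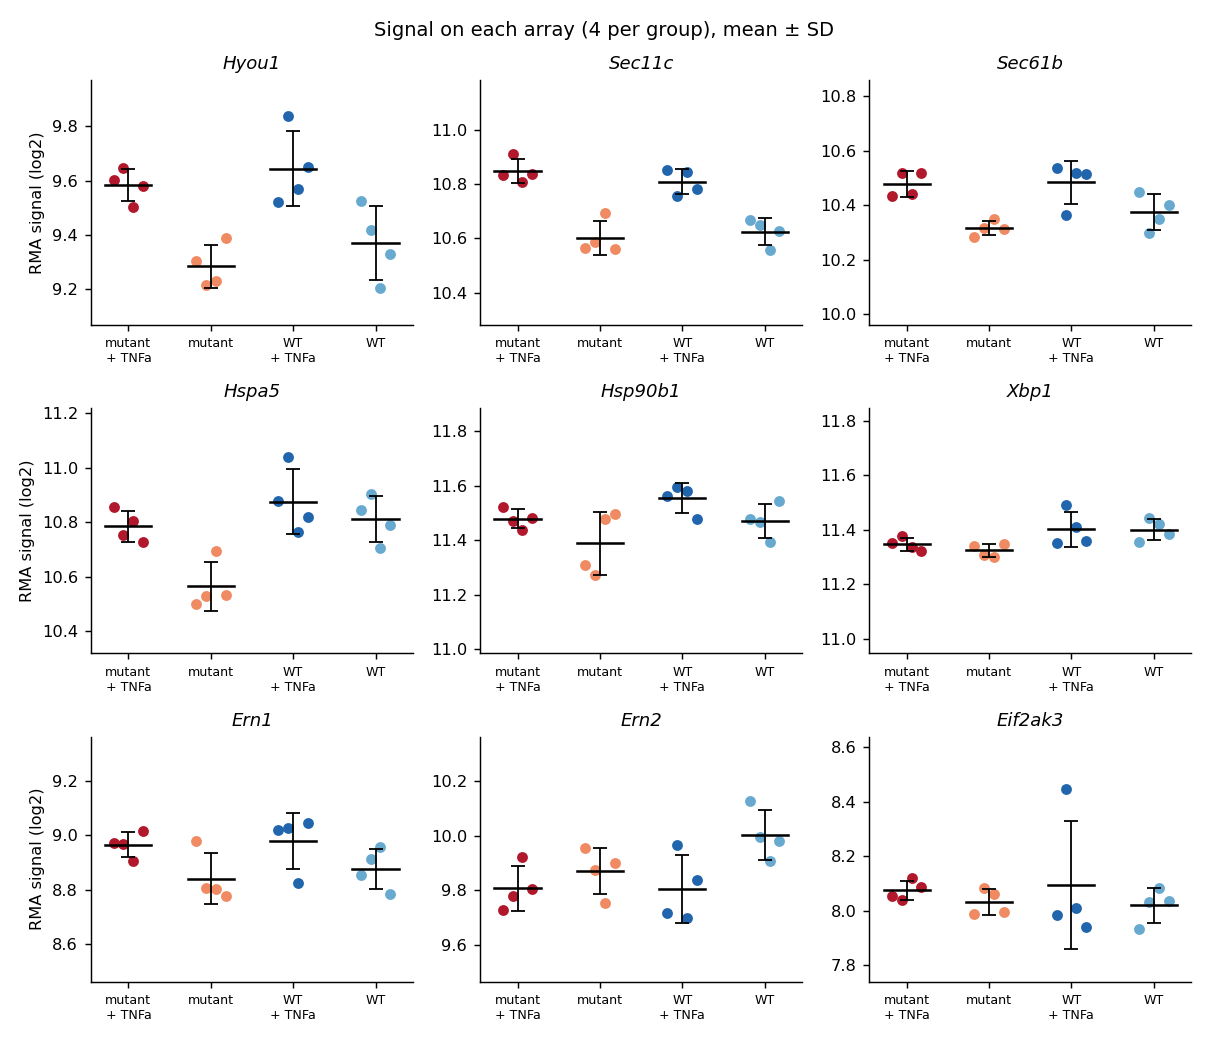
Log2 signal on each of the 16 arrays for 9 ER genes, 1 panel per gene, with mutant + TNFa, mutant, WT + TNFa and WT from left to right; points are arrays, horizontal bars group means of 4 arrays and error bars the SD. Hyou1 and Sec11c sit higher with TNFa in both genotypes, Hspa5 is lowest in untreated mutant arrays, and Xbp1 spans 0.19 log2 over all 16.

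TNFa raised few of the ER genes, and by small amounts. Hyou1 and Sec11c rose in both genotypes, Sec61b rose when the genotypes were averaged, and no ER gene fell by the test in any TNFa comparison. Counted over the 34 genes, 2 rose and 0 fell in mutant organoids, or 5.88% of the list, where 3.51% of all tested genes rose and 2.47% fell (5.98% in all). The same 2 rose and 0 fell in WT, again 5.88%, where 5.03% of all tested genes rose and 5.75% fell (10.8% in all). Averaged over both genotypes 3 rose and 0 fell (8.82%), where 7.79% of all tested genes rose and 7.22% fell (15.0% in all). The share of called rises, on 2 or 3 genes each, was therefore near the background in all 3 comparisons. Counted as higher without overlap of the groups, there were 8 of 34 in mutant, above the 7.88% of all tested genes. In WT there were 2 of 34, against 6.82%. The median change of the 34 was 0.08 log2 in mutant and 0.07 in WT, against 0.01 for all tested genes in each. The change was above 0 for 30 of 34 genes in mutant and 25 of 34 in WT, where 52.8% and 52.9% of all tested genes were. These counts were 29 and 23 under quantile normalization and 30 and 23 after centring on array medians. The sign was shared by both genotypes for 27 genes, 24 up and 3 down, and was opposite for 7 (79.4% shared, against 63.2% of all tested genes). The 95% interval of every one of the 34 changes lay within 0.5 log2 of 0 in each genotype, between −0.32 and 0.46 in mutant and between −0.38 and 0.44 in WT.

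**Figure D2:**
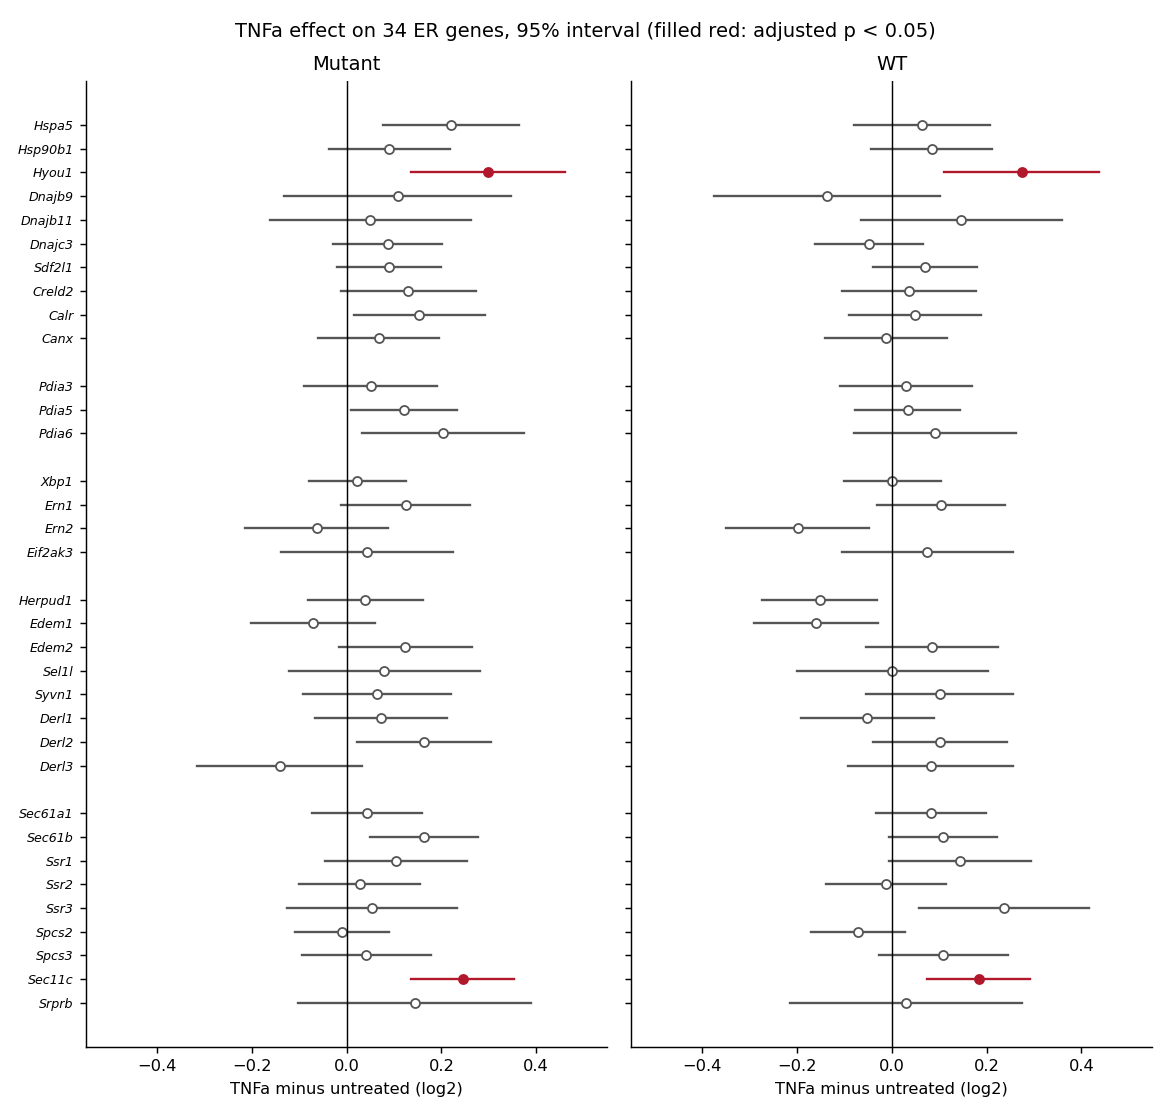
TNFa effect on each of the 34 ER genes, as the log2 difference between TNFa-treated and untreated arrays with its 95% interval, in mutant (left) and WT (right) organoids; genes are grouped by role and filled red points passed adjusted p under 0.05. Hyou1 and Sec11c are the filled points in each panel, and every interval lies within 0.5 log2 of 0.

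Among the chaperones, Hyou1 had the largest TNFa change in both genotypes. HYOU1 is an ER member of the HSP70 superfamily that also acts as the nucleotide exchange factor of BiP. Its signal was 9.60, 9.64, 9.50 and 9.58 log2 on arrays 1 to 4 of mutant organoids with TNFa, against 9.30, 9.22, 9.23 and 9.39 on untreated mutant arrays. WT arrays gave 9.52, 9.84, 9.57 and 9.65 with TNFa, against 9.52, 9.42, 9.20 and 9.33 untreated. The mutant groups did not overlap, whereas in WT the lowest treated array met the highest untreated one. Hyou1 rose by 0.30 log2 in mutant (1.23-fold, 95% interval 0.13 to 0.46, adjusted p = 0.0268) and by 0.27 in WT (1.21-fold, 0.11 to 0.44, adjusted p = 0.0296). The call in mutant was kept without WT + TNFa 2 (adjusted p = 0.00902). These rises differed by 0.02 log2 (interval −0.21 to 0.25, adjusted p = 0.981). Averaged over both genotypes the rise was 0.29 log2 (adjusted p = 0.00127), and it kept its call without each of the 16 arrays in turn (adjusted p at most 0.00366). Within 1 genotype it was less firm. In WT the call was lost without WT + TNFa 2 (0.21 log2, adjusted p = 0.0697), WT + TNFa 4 (adjusted p = 0.0519), WT 3 (adjusted p = 0.1) or WT 4 (adjusted p = 0.0754). In mutant it was lost without mutant + TNFa 1, 2 or 4 (adjusted p = 0.0756, 0.0827 and 0.0646) or mutant 1, 2 or 3 (adjusted p = 0.0558, 0.0867 and 0.0739). When limma was fitted with a block for each sample number within a genotype, the call was lost in mutant (adjusted p = 0.0624) and in WT (adjusted p = 0.06).

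Hspa5 encodes BiP, the main HSP70 chaperone of the ER, which also holds the stress sensors inactive. Its signal was 10.86, 10.75, 10.81 and 10.73 log2 in mutant with TNFa, against 10.50, 10.53, 10.70 and 10.53 in untreated mutant. On WT arrays it stood at 10.88, 11.04, 10.77 and 10.82 with TNFa, against 10.85, 10.90, 10.70 and 10.79 untreated. The untreated mutant arrays were the lowest and did not overlap with those of treated mutant or, by a narrow margin, with untreated WT, while the WT groups overlapped. The TNFa change was 0.22 log2 in mutant (interval 0.08 to 0.36, adjusted p = 0.0703) and 0.06 in WT (−0.08 to 0.21, adjusted p = 0.628), and neither passed the threshold. Their difference was 0.16 log2 (interval −0.05 to 0.36, adjusted p = 0.787). The change in mutant passed without mutant 3 (0.26 log2, adjusted p = 0.0348), the highest untreated mutant array. It also passed without WT + TNFa 2 (adjusted p = 0.0274), which is outside that comparison. There the change stayed at 0.22 log2, and only the shared spread and the adjustment moved.

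Hsp90b1, the ER member of the HSP90 family, was 11.52, 11.47, 11.44 and 11.48 log2 in mutant with TNFa, against 11.31, 11.27, 11.48 and 11.50 in untreated mutant. In WT it was 11.56, 11.60, 11.58 and 11.48 with TNFa, against 11.48, 11.47, 11.39 and 11.54 untreated. The groups overlapped in both genotypes, with changes of 0.09 log2 in mutant (adjusted p = 0.554) and 0.08 in WT (adjusted p = 0.446). The remaining chaperones were not called either. In mutant all 10 tested chaperones had a change above 0, among them 0.15 log2 for the lectin chaperone Calr (adjusted p = 0.251) and 0.13 for Creld2 (adjusted p = 0.381). In WT 7 of 10 did, and the largest change below 0 was that of Dnajb9, a BiP cochaperone (−0.14 log2, adjusted p = 0.517). The cochaperones Dnajb11 and Dnajc3 and the cochaperone partner Sdf2l1 had differences of 0.05 to 0.09 log2 in mutant and of −0.05 to 0.15 in WT, without a call. Canx, the membrane-bound lectin chaperone, was 0.07 log2 higher in mutant and 0.01 lower in WT, without a call.

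None of the 3 tested disulfide isomerases, which form and rearrange disulfide bonds, was called with TNFa. Of all tested genes, 5.98% were called in mutant and 10.8% in WT. Pdia6 averaged 9.44 ± 0.03 log2 in mutant with TNFa and 9.24 ± 0.08 in untreated mutant, and 9.54 ± 0.15 in WT with TNFa and 9.45 ± 0.16 in untreated WT (SD, n = 4 each). The mutant groups did not overlap, and its change there was 0.20 log2 (interval 0.03 to 0.37, adjusted p = 0.2). Pdia5 also did not overlap in mutant, at 8.59 to 8.63 with TNFa and 8.46 to 8.53 untreated (0.12 log2, adjusted p = 0.261). Pdia3, which works on glycoproteins with calnexin and calreticulin, was higher by 0.05 log2 in mutant and 0.03 in WT, without a call. Over the 34 genes, the groups did not overlap for 8 in mutant, all 8 higher with TNFa (Hspa5, Hyou1, Pdia5, Pdia6, Edem2, Sec61a1, Sec61b and Sec11c), where 7.88% of all tested genes were higher without overlap. In WT they did not overlap for 3, Ssr3 and Sec11c higher (6.82% of all tested genes) and Spcs2 lower (7.34%). At an unadjusted p under 0.05 there were 8 ER genes in mutant and 6 in WT, against 15.7% and 23.5% of all tested genes.

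The sensors and their transcription factor were not called under TNFa. Xbp1, whose mRNA IRE1 splices into the active form, was 11.35, 11.38, 11.34 and 11.32 log2 in mutant with TNFa, against 11.34, 11.31, 11.30 and 11.35 in untreated mutant. WT arrays gave 11.35, 11.49, 11.41 and 11.36 with TNFa, against 11.36, 11.44, 11.42 and 11.38 untreated. The groups overlapped throughout, and the change was 0.02 log2 in mutant (interval −0.08 to 0.12) and 0.00 in WT (−0.10 to 0.10, adjusted p = 0.994). The array gives 1 value for Xbp1, so spliced and unspliced forms were not measured apart. Its range over the 16 arrays, 0.19 log2, was at the 1.9 percentile of the ranges of all tested genes.

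Ern1, the widely expressed IRE1 alpha, was 8.97, 8.97, 8.91 and 9.02 log2 in mutant with TNFa, against 8.98, 8.81, 8.80 and 8.78 in untreated mutant. On WT arrays it stood at 9.02, 9.03, 8.83 and 9.05 with TNFa, against 8.85, 8.91, 8.96 and 8.78 untreated. The groups overlapped through single arrays, and the changes of 0.12 log2 in mutant (interval −0.01 to 0.26, adjusted p = 0.381) and 0.10 in WT (−0.03 to 0.24, adjusted p = 0.361) were not called. Eif2ak3, which encodes PERK, the kinase that slows translation under ER stress, was 8.05, 8.04, 8.12 and 8.09 in mutant with TNFa, against 7.99, 8.08, 8.06 and 8.00 in untreated mutant. In WT it was 7.99, 8.45, 8.01 and 7.94 with TNFa, against 7.93, 8.03, 8.08 and 8.03 untreated, so that 1 array, WT + TNFa 2, lay above the other 15. Its changes were 0.04 log2 in mutant (adjusted p = 0.906) and 0.08 in WT (adjusted p = 0.662).

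Ern2, the IRE1 beta of mucus-secreting epithelium, was measured lower with TNFa. It was 9.73, 9.78, 9.92 and 9.80 log2 in mutant with TNFa, against 9.95, 9.87, 9.75 and 9.90 in untreated mutant. WT arrays gave 9.71, 9.96, 9.70 and 9.84 with TNFa, against 10.13, 9.99, 9.91 and 9.98 untreated, and the WT groups overlapped through WT + TNFa 2 alone. The change was −0.06 log2 in mutant (adjusted p = 0.797) and −0.20 in WT (interval −0.35 to −0.05, adjusted p = 0.0905), not called. Without WT + TNFa 2 the WT change was −0.25 log2 and passed (adjusted p = 0.0224), and it also passed after centring on array medians (−0.22, adjusted p = 0.0471), where the called split in WT became 1 up and 1 down in place of 2 up and 0 down. The difference between the genotypes, 0.14 log2 (interval −0.08 to 0.35), was not called (adjusted p = 0.828). The 7 goblet cell markers, taken as a sum, were also lower in WT with TNFa. Their summed signal was 14.67 to 14.69 log2 in mutant with TNFa and 14.68 to 14.75 in untreated mutant, and 14.66 to 14.74 in WT with TNFa and 14.76 to 14.82 in untreated WT. In WT all 7 had a change below 0, of which Muc2, the main gel-forming mucin of the colon, was called (−0.25 log2, adjusted p = 0.0216), and none of the 7 was dim on any array. The smallest of these changes was that of Spink4, at a mean of 10.41 log2 with TNFa and 10.43 untreated. The part of goblet cell content in these values was not tested.

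The 8 degradation genes gave no call with TNFa, where 5.98% of all tested genes were called in mutant and 10.8% in WT. Herpud1, a membrane scaffold of the degradation complex, averaged 10.53 ± 0.03 log2 in mutant with TNFa and 10.49 ± 0.03 in untreated mutant, and 10.47 ± 0.09 in WT with TNFa and 10.63 ± 0.08 in untreated WT (SD, n = 4 each). Its change was 0.04 log2 in mutant (adjusted p = 0.861) and −0.15 in WT (adjusted p = 0.109). Edem1, which marks misfolded glycoproteins by trimming mannose, gave −0.07 log2 in mutant (adjusted p = 0.697) and −0.16 in WT (interval −0.29 to −0.03, adjusted p = 0.118). Without WT + TNFa 2 the Edem1 change in WT was −0.20 log2 and passed (adjusted p = 0.0436), and Herpud1 passed without WT + TNFa 4 (−0.19, adjusted p = 0.0431). Derl2, a channel subunit for the exit of misfolded chains, was 0.16 log2 higher in mutant (adjusted p = 0.22) and 0.10 higher in WT (adjusted p = 0.398). Its homologues gave mixed values, with Derl1 at 0.07 log2 in mutant and −0.05 in WT, and Derl3 at −0.14 in mutant and 0.08 in WT, all without a call. Sel1l and Syvn1, the core of the HRD1 ubiquitin ligase, gave differences of 0.08 and 0.06 log2 in mutant and of 0.00 and 0.10 in WT, and Edem2, an EDEM1 relative, of 0.12 in mutant and 0.08 in WT, none of them called.

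Protein entry held the remaining calls. Sec11c is a catalytic subunit of signal peptidase, which cuts the signal peptide off entering chains. It was 10.83, 10.91, 10.81 and 10.84 log2 in mutant with TNFa, against 10.56, 10.59, 10.69 and 10.56 in untreated mutant. On WT arrays it stood at 10.85, 10.76, 10.84 and 10.78 with TNFa, against 10.67, 10.65, 10.56 and 10.63 untreated. Every treated array lay above every untreated array in both genotypes. Sec11c rose by 0.25 log2 in mutant (1.19-fold, interval 0.14 to 0.35, adjusted p = 0.00629) and by 0.18 in WT (1.14-fold, 0.07 to 0.29, adjusted p = 0.0295), and these rises differed by 0.06 (interval −0.09 to 0.22, adjusted p = 0.893). Averaged over both genotypes it rose by 0.21 log2 (adjusted p = 4.5e-04) and kept the call without each of the 16 arrays in turn (adjusted p at most 0.00154). Without WT + TNFa 2 both calls were kept, in mutant (adjusted p = 0.00365) and in WT (0.20 log2, adjusted p = 0.0178). In WT the call was lost without WT + TNFa 1 (adjusted p = 0.0752), WT + TNFa 3 (adjusted p = 0.081), WT 3 (adjusted p = 0.0905) or WT 4 (adjusted p = 0.0627), and after centring on array medians (adjusted p = 0.0909). When limma was fitted with a block for each sample number within a genotype, the call was lost in mutant (adjusted p = 0.0547) and in WT (adjusted p = 0.113).

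Sec61b encodes the beta subunit of the Sec61 channel. It was 10.43, 10.52, 10.44 and 10.52 log2 in mutant with TNFa, against 10.28, 10.32, 10.35 and 10.31 in untreated mutant. In WT it was 10.54, 10.37, 10.52 and 10.51 with TNFa, against 10.45, 10.30, 10.35 and 10.40 untreated. The mutant groups did not overlap, and in WT they overlapped through WT + TNFa 2 alone. Averaged over both genotypes Sec61b rose by 0.14 log2 (1.10-fold, interval 0.05 to 0.22, adjusted p = 0.0223), and by 0.16 without WT + TNFa 2 (adjusted p = 0.00404). The call was lost without mutant + TNFa 4 (adjusted p = 0.0512), after centring on array medians (adjusted p = 0.0844) and without the filter on dim genes (adjusted p = 0.0596). It was also lost when limma was fitted with a block for each sample number within a genotype (adjusted p = 0.0551). Within a genotype it was 0.16 log2 in mutant (adjusted p = 0.102, or 0.0418 without WT + TNFa 2) and 0.11 in WT (adjusted p = 0.24). WT + TNFa 2 is outside the mutant comparison, where the change was 0.16 log2 with or without it.

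The other entry genes were not called with TNFa. Ssr3, the gamma subunit of the translocon-associated protein complex, was 9.75, 9.62, 9.78 and 9.85 log2 in mutant with TNFa, against 9.52, 9.67, 10.01 and 9.59 in untreated mutant, and 10.04, 9.97, 10.01 and 9.96 in WT with TNFa, against 9.83, 9.71, 9.72 and 9.77 untreated. The WT groups did not overlap (0.24 log2, interval 0.06 to 0.42, adjusted p = 0.0893), while mutant 3 stood among the treated WT arrays. Without mutant 3 the WT change passed (adjusted p = 0.0156) at the same 0.24 log2, as that array is outside the comparison. Of the partner subunits of that complex, Ssr1 was 0.10 log2 higher in mutant and 0.14 in WT, and Ssr2 0.03 higher in mutant and 0.01 lower in WT. Sec61a1, the channel pore, was 0.04 higher in mutant and 0.08 in WT. The signal peptidase subunits Spcs2 and Spcs3 gave −0.01 and 0.04 log2 in mutant and −0.07 and 0.11 in WT, and Srprb, a subunit of the signal recognition particle receptor, 0.14 and 0.03. Spcs2 had the smallest range of the 34 over all 16 arrays, 0.12 log2, at the 0.2 percentile of all tested genes, and Hyou1 and Srprb the largest, 0.63, at the 72.7 percentile.

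**Figure D3:**
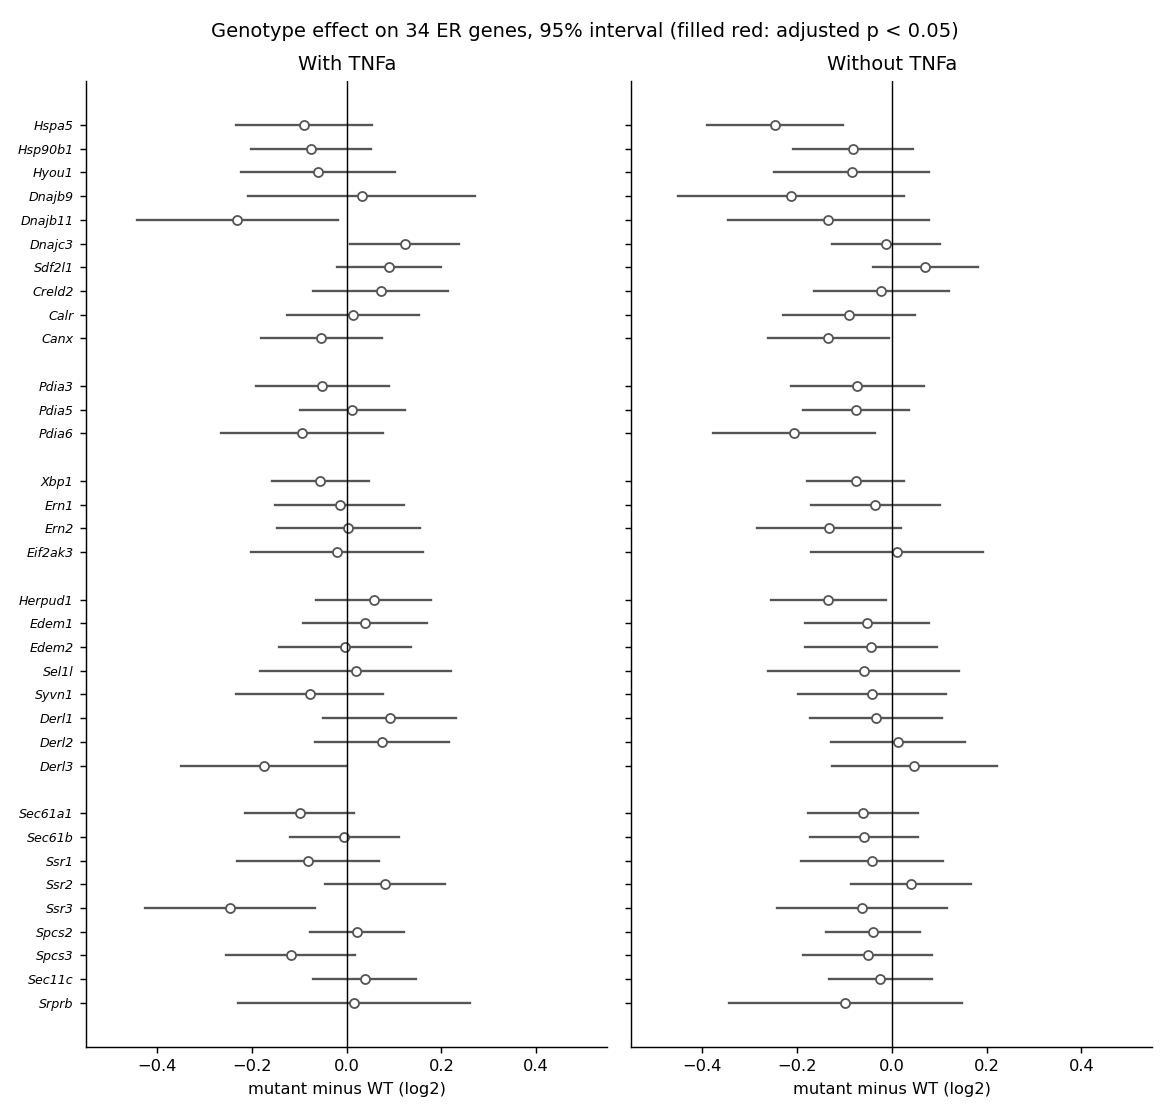
Genotype effect on each of the 34 ER genes, as the log2 difference between mutant and WT arrays with its 95% interval, with TNFa (left) and without TNFa (right); genes are grouped by role. No point passed adjusted p under 0.05, and the interval of Hspa5 without TNFa, −0.39 to −0.10, lies below 0.

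Between genotypes at a fixed treatment, limma called none of the ER genes. With TNFa 0 of 34 were called (2.69% of all tested genes were) and 4 had an unadjusted p under 0.05 (13.6%). Without TNFa 0 of 34 were called (2.48%) and 4 had an unadjusted p under 0.05 (13.3%). Other settings of the limma fit on all 16 arrays called 0 with TNFa and up to 1, Hspa5, without it. With TNFa the differences fell on both sides, 16 above and 18 below 0, with a median near 0. Without TNFa they were above 0 for 5 and below 0 for 29 of 34, where 47.7% of all tested genes were above 0. The median was −0.06 log2 against −0.01 for all tested genes. The count below 0 was 27 of 34 under quantile normalization and 31 of 34 after centring. Every interval lay within 0.5 log2 of 0, between −0.44 and 0.27 with TNFa and between −0.45 and 0.22 without it. A sign shared by both treatments was seen for 19 genes, 3 up and 16 down, and an opposite one for 15 (55.9% shared, against 58.4% of all tested genes).

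Hspa5 had the lowest difference without TNFa, −0.25 log2 in mutant against WT (interval −0.39 to −0.10, adjusted p = 0.0684), and with TNFa it was −0.09 (−0.23 to 0.05, adjusted p = 0.615). Averaged over both treatments Hspa5 was 0.17 log2 lower in mutant (1.12-fold, interval 0.07 to 0.27 lower) and was the 1 ER gene called there (adjusted p = 0.0479), which is 2.94% of the list, where 3.36% of all tested genes were lower and 5.88% were called in all. That call did not hold without any 1 of 13 of the 16 arrays, WT + TNFa 2 among them (−0.14 log2, adjusted p = 0.059), and the adjusted p without 1 array ran up to 0.101. The 3 arrays whose absence kept it were mutant 3, WT + TNFa 3 and WT 3. The difference without TNFa passed without mutant 3 (−0.29, adjusted p = 0.0379). It also passed without WT + TNFa 2 (adjusted p = 0.0261), which is outside that comparison and left the difference at −0.25 log2. Goblet cell markers as a sum also differed there, as their summed signals in untreated mutant and untreated WT did not overlap, and their part in the Hspa5 value was not tested. Among these markers Spink4 went the other way, at a mean of 10.45 log2 in untreated mutant and 10.43 in untreated WT.

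Other ER genes with an unadjusted p under 0.05 and no call were Pdia6 (−0.21 log2, adjusted p = 0.256), Canx (−0.13, adjusted p = 0.343) and Herpud1 (−0.13, adjusted p = 0.309) without TNFa. With TNFa they were Ssr3 (−0.25, interval −0.42 to −0.07, adjusted p = 0.17), Dnajb11 (−0.23, adjusted p = 0.311), Derl3 (−0.18, adjusted p = 0.363) and, above 0, Dnajc3 (0.12, adjusted p = 0.327). Ssr3 passed without mutant 3 (adjusted p = 0.0333), an array outside this comparison, with the difference unchanged at −0.25 log2. The groups did not overlap for Hspa5, Xbp1 and Herpud1 without TNFa, all 3 lower in mutant (5.88% of all tested genes were), and with TNFa for Derl2, higher in mutant (4.27%), and Sec61a1 and Ssr3, lower (4.62%). Xbp1 was 0.08 log2 lower in mutant without TNFa (adjusted p = 0.553), and with TNFa it was 0.06 lower (adjusted p = 0.678). Hyou1 was 0.06 log2 lower with TNFa (adjusted p = 0.789) and 0.09 lower without it (adjusted p = 0.711), and Sec11c was 0.04 higher with TNFa (adjusted p = 0.806) and 0.02 lower without it (adjusted p = 0.904).

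The difference of the TNFa effects, mutant minus WT, was called by limma for 0 of 34 ER genes and for 0.00850% of all tested genes. At an unadjusted p under 0.05 there was 1 ER gene, Herpud1 (0.19 log2, interval 0.02 to 0.36, adjusted p = 0.635), against 7.27% of all tested genes. The other settings of the limma fit also called 0 ER genes. The difference was above 0 for 26 of 34 (52.0% of all tested genes), with a median of 0.06 log2 against 0.01 for all tested genes. The same untreated mutant arrays enter this count, the 30 of 34 above 0 with TNFa in mutant and the 29 of 34 below 0 between untreated genotypes. These counts are therefore not independent. Its interval lay within 0.5 log2 of 0 for 33 of 34, and for Dnajb9 it reached 0.58.

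The 9 genes with the ER stress response element in their window were set beside the 18 tested genes whose RefSeq window lacked it, as a description without a test. The median TNFa change was 0.09 log2 in mutant for the 9 and 0.08 for the 18, and in WT 0.07 for the 9 and 0.05 for the 18. The median genotype difference with TNFa was −0.08 for the 9 and 0.00 for the 18, and without TNFa −0.08 for the 9 and −0.06 for the 18. None of the 9 was called under TNFa, where 5.98% of all tested genes were in mutant and 10.8% in WT. Hspa5 was the 1 of them called between genotypes, averaged over both treatments. Hyou1 and Sec11c, which were called with TNFa in both genotypes, had no promoter sequence there and stand in neither set. Whether they carry the element was therefore not examined.

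**Figure D4:**
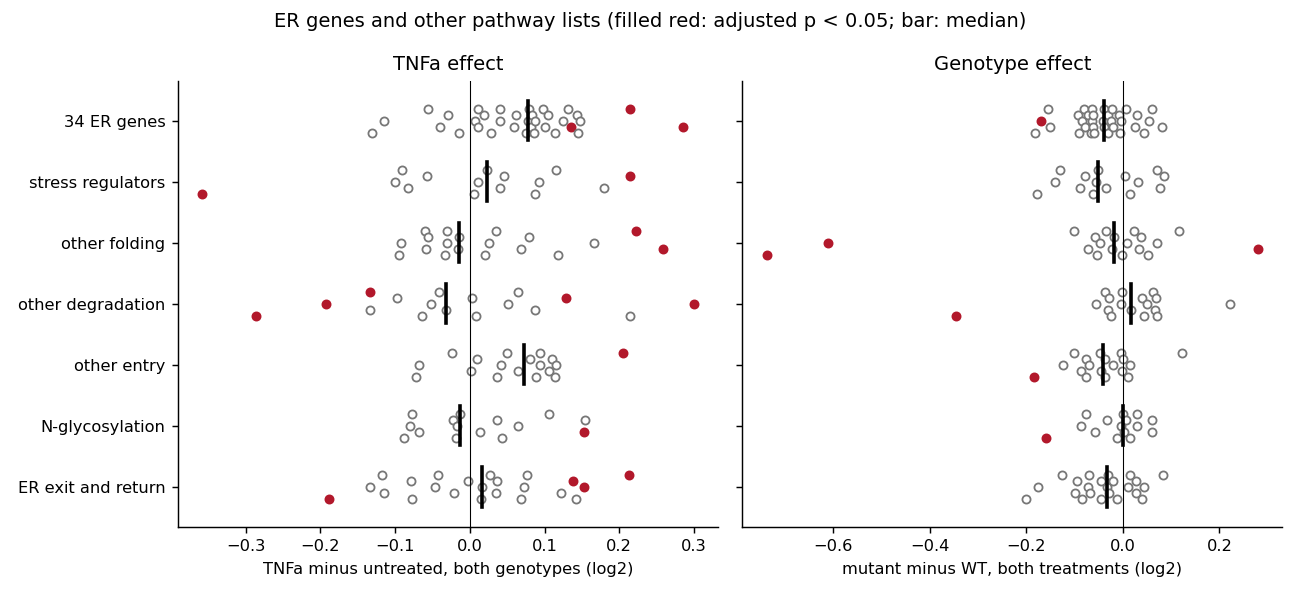
TNFa effect averaged over both genotypes (left) and genotype effect averaged over both treatments (right), as log2 differences, of the 34 ER genes and of 6 further lists of secretory pathway genes, 1 point per gene, with black bars at the list medians and filled red points for genes with adjusted p under 0.05. Most points of every list lie near 0, and the filled points farthest from 0 are Fkbp9 and Fkbp11 in the right panel.

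The rest of the pathway was read from 6 further lists, which were written with earlier results of these data known. Of 15 stress regulators tested, 1 fell with TNFa in each genotype, which is 6.67% of the list against 5.98% of all tested genes called in mutant and 10.8% in WT. At a fixed treatment none was called between genotypes, where 2.69% of all tested genes were with TNFa and 2.48% without it. The gene that fell was Ddit3, which encodes CHOP, the transcription factor of prolonged ER stress. Ddit3 was 9.09, 9.09, 9.40 and 9.28 log2 in mutant with TNFa, against 9.52, 9.49, 9.66 and 9.38 in untreated mutant, and 9.33, 9.18, 9.20 and 9.13 in WT with TNFa, against 9.71, 9.63, 9.49 and 9.67 untreated. The WT groups did not overlap, and in mutant 1 treated array lay within the untreated range. Ddit3 fell by 0.30 log2 in mutant (adjusted p = 0.033) and by 0.42 in WT (adjusted p = 0.00214). The call held without each of the 16 arrays in turn in WT (adjusted p at most 0.00977) and was lost without 6 of them in mutant (adjusted p up to 0.124). Bhlha15, or MIST1, a regulator of secretory cells, rose by 0.21 log2 averaged over both genotypes (adjusted p = 0.0289), a call lost without 8 of the 16 arrays (adjusted p up to 0.065).

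**Figure D5:**
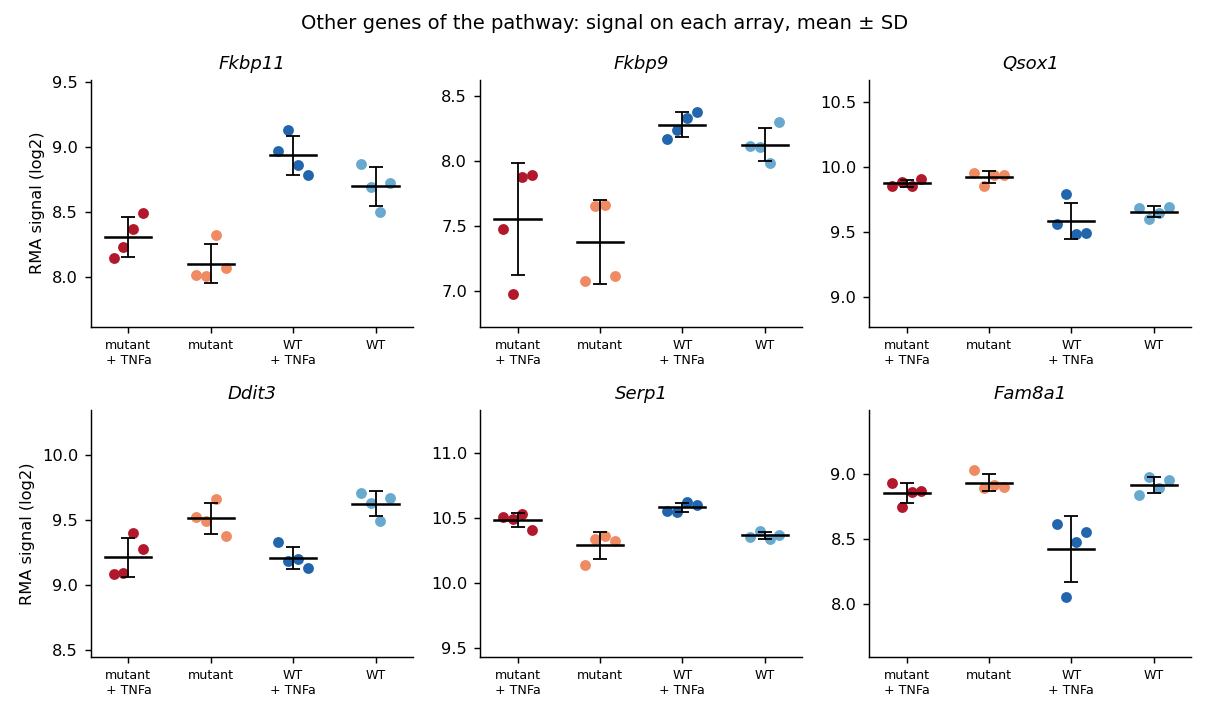
Log2 signal on each of the 16 arrays for called secretory pathway genes outside the 36, 1 panel per gene, with mutant + TNFa, mutant, WT + TNFa and WT from left to right; points are arrays, horizontal bars group means of 4 arrays and error bars the SD. Ddit3 is lower and Serp1 higher with TNFa, and Fkbp11 and Fkbp9 are lower in all 8 mutant arrays than in all 8 WT arrays.

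Of 18 further entry genes, Serp1 rose with TNFa in both genotypes, which is 5.56% of the list against 5.98% of all tested genes called in mutant and 10.8% in WT. At a fixed treatment none was called between genotypes, against 2.69% of all tested genes with TNFa and 2.48% without it. Serp1, or RAMP4, is a small protein of the Sec61 channel that stabilizes new membrane proteins. It was 10.50, 10.49, 10.53 and 10.41 log2 in mutant with TNFa, against 10.14, 10.34, 10.36 and 10.32 in untreated mutant, and 10.55, 10.55, 10.62 and 10.60 in WT with TNFa, against 10.36, 10.40, 10.34 and 10.36 untreated. The groups did not overlap in either genotype. The rise was 0.19 log2 in mutant (adjusted p = 0.0473) and 0.22 in WT (adjusted p = 0.0173), and 0.21 averaged over both (adjusted p = 0.00129). In mutant the call was lost without 13 of the 16 arrays in turn (adjusted p up to 0.163), in WT without 1 of them (adjusted p = 0.0546), and over both genotypes without none (adjusted p at most 0.00394). Averaged over both treatments, Srp68 of the signal recognition particle was 0.18 log2 lower in mutant (adjusted p = 0.0236), a call lost without 5 of the 16 arrays (adjusted p up to 0.0574).

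Of 19 further folding genes, 2 were lower and 1 was higher in mutant at each treatment, which is 15.8% of the list against 2.69% of all tested genes called with TNFa and 2.48% without it. The list was not tested as a set, and as it was written with earlier results of these data known, this share is a description only. Fkbp11 and Fkbp9 encode ER peptidyl-prolyl isomerases, which speed up the folding of chains at proline. Fkbp11 was 8.14, 8.23, 8.37 and 8.49 log2 in mutant with TNFa, against 8.97, 9.13, 8.86 and 8.78 in WT with TNFa, and 8.01, 8.01, 8.32 and 8.07 in untreated mutant, against 8.87, 8.69, 8.50 and 8.73 in untreated WT. All 8 mutant arrays lay below all 8 WT arrays, the closest pair being mutant + TNFa 4 and WT 3. The difference was −0.63 log2 with TNFa (1.54-fold lower, adjusted p = 0.0016) and −0.59 without it (1.51-fold lower, adjusted p = 0.00222), and it held without each of the 16 arrays in turn (adjusted p at most 0.00816 with TNFa and 0.0111 without).

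Fkbp9 was 7.48, 6.97, 7.87 and 7.89 log2 in mutant with TNFa, against 8.17, 8.24, 8.33 and 8.38 in WT with TNFa, and 7.07, 7.65, 7.66 and 7.11 in untreated mutant, against 8.11, 8.10, 7.99 and 8.30 in untreated WT. Again no mutant array reached a WT array, although the mutant arrays spread widely. The difference was −0.72 log2 with TNFa (adjusted p = 0.0308) and −0.75 without it (1.68-fold lower, adjusted p = 0.0253), each lost without 5 of the 16 arrays (adjusted p up to 0.0936 with TNFa and 0.0917 without). WT + TNFa 2 was among them for the difference with TNFa (adjusted p = 0.0513). Averaged over both treatments it was −0.74 (adjusted p = 0.00103) and held without each array (adjusted p at most 0.00337). Qsox1, a sulfhydryl oxidase of the secretory route, was higher in mutant, by 0.29 log2 with TNFa (adjusted p = 0.0156) and 0.27 without it (adjusted p = 0.0271), calls lost without 2 and 7 of the 16 arrays. Averaged over both treatments Qsox1 kept its call without each array (adjusted p at most 0.00243). Dnajc10, an ER reductase with a J domain, rose by 0.32 log2 with TNFa in WT (adjusted p = 0.0112, at most 0.0435 without any 1 array), and Txndc12, an ER thioredoxin-like protein, fell by 0.21 (adjusted p = 0.0443, lost without 10 of the 16 arrays, WT + TNFa 2 among them with adjusted p = 0.0974). Their mutant changes were 0.19 (adjusted p = 0.198) and 0.09 (adjusted p = 0.592). Averaged over both genotypes Dnajc10 rose by 0.26 (adjusted p = 0.00304), and Txndc12 was not called (−0.06, adjusted p = 0.471). The differences of these TNFa effects were not called (adjusted p = 0.847 for Dnajc10 and 0.419 for Txndc12).

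Of 17 further degradation genes, 1 rose and 3 fell with TNFa in WT, which is 23.5% of the list against 10.8% of all tested genes called. In mutant 0 were called, against 5.98% of all tested genes, and 3 had an unadjusted p under 0.05, against 15.7%. With TNFa 1 was higher in mutant than in WT, or 5.88% against 2.69%. Fam8a1, a partner of the HRD1 ligase, fell by 0.49 log2 in WT (adjusted p = 0.00192), with 8.61, 8.06, 8.48 and 8.55 in treated against 8.84, 8.98, 8.89 and 8.96 in untreated WT. In mutant Fam8a1 was 8.93, 8.75, 8.86 and 8.87 with TNFa and 9.03, 8.89, 8.91 and 8.90 untreated, with a change of −0.08 (adjusted p = 0.803). The difference of these TNFa effects, 0.41 log2, was not called (adjusted p = 0.468). With TNFa, Fam8a1 was 0.43 log2 higher in mutant than in WT (adjusted p = 0.0175), a call lost without 2 of the 16 arrays (adjusted p up to 0.0645). Erlec1 and Os9, lectins that bring trimmed glycoproteins to HRD1, fell in WT by 0.22 (adjusted p = 0.0221) and 0.18 (adjusted p = 0.0313), calls lost without 3 and 6 of the 16 arrays. Their mutant changes were −0.17 (adjusted p = 0.123) and −0.08 (adjusted p = 0.502). Averaged over both genotypes they fell by 0.19 (adjusted p = 0.00323) and 0.13 (adjusted p = 0.0191). Vcp, the ATPase that pulls chains out of the ER membrane, rose in WT by 0.45 (adjusted p = 0.0384), a call lost without 6 of the 16 arrays (adjusted p up to 0.123). Its mutant change was 0.15 (adjusted p = 0.698), and averaged over both genotypes it rose by 0.30 (adjusted p = 0.0392). The differences of the TNFa effects on Erlec1, Os9 and Vcp were not called (adjusted p = 0.925, 0.828 and 0.788). Averaged over both treatments Vcp was 0.35 log2 lower in mutant (adjusted p = 0.0381), a call lost without 10 of the 16 arrays (adjusted p up to 0.0828). Without WT + TNFa 2 the WT calls of Fam8a1, Erlec1, Os9 and Vcp were kept, with adjusted p of 6.2e-04, 0.0175, 0.0426 and 0.0447.

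Of 23 genes of ER exit and return, 2 rose and 1 fell with TNFa in WT, or 13.0% of the list against 10.8% of all tested genes called. In mutant 0 were called, against 5.98% of all tested genes, and 1 had an unadjusted p under 0.05, against 15.7%. The COPII coat genes Sec23b and Sar1a rose by 0.33 log2 (adjusted p = 0.0309) and 0.20 (adjusted p = 0.0485), calls lost without 5 and 14 of the 16 arrays, WT + TNFa 2 among them for both (adjusted p = 0.066 and 0.108). Kdelr2, a receptor that returns ER proteins, fell by 0.25 (adjusted p = 0.0223), lost without 3 of them but kept without WT + TNFa 2 (adjusted p = 0.0321). The mutant changes of Sec23b, Sar1a and Kdelr2 were 0.09, 0.10 and −0.13 (adjusted p = 0.75, 0.489 and 0.393). Averaged over both genotypes each was called, at 0.21, 0.15 and −0.19 (adjusted p = 0.039, 0.0261 and 0.0105). The differences of their TNFa effects were not called (adjusted p = 0.758, 0.856 and 0.832). None of 15 N-glycosylation genes was called with TNFa in either genotype by limma, against 5.98% of all tested genes in mutant and 10.8% in WT. At an unadjusted p under 0.05 there were 1 in mutant and 3 in WT, against 15.7% and 23.5% of all tested genes. Averaged over both genotypes, Rpn1, a subunit of the oligosaccharyltransferase, rose by 0.15 (adjusted p = 0.0261), a call lost without 4 of the 16 arrays (adjusted p up to 0.0621). Averaged over both treatments Rpn1 was 0.16 lower in mutant (adjusted p = 0.0416), a call lost without 9 of the 16 arrays (adjusted p up to 0.0927).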

How the data were processed

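RNA of 16 organoid samples was measured on single-colour Affymetrix arrays, from 400 ng of amplified RNA per sample, per the labels' protocols. The authors deposited log2 signals computed with RMA in Affymetrix Expression Console, per the submitters' processing notes. The sources used here give no tool versions, array design or genome build, and values ran from 2.23 to 12.9. Of 19825 probe sets, 18851 carried 1 gene symbol, 974 none and 0 several, from a platform annotation that can be old. The number of arrays limits the precision.

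Each gene was read from its brightest probe set and tested if above its array's 40th percentile (6.40 to 6.56 log2) on at least 4 arrays, which set aside 7084 dim genes. No further normalization was applied. Samples were grouped by their titles, and only those titled with TNFa were taken as treated, although the protocol text stands on every sample. limma 3.58.1 under R 4.3.3 fitted 4 group means to all 16 arrays, with two-sided moderated tests and Benjamini-Hochberg adjustment over 11766 genes in 7 comparisons, and intervals cover 95%. The scripts were tested on simulated data.

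The 36 genes, the lists and the tests were chosen with earlier results of these data known. Array values are given for members called in any comparison and for Hspa5, Hsp90b1, Xbp1, Ern1, Ern2 and Eif2ak3. From each further list up to 4 called genes per comparison were eligible to be named. Array values of Ssr3 and the members given beside these were added after their values were seen. Alternatives changed the filter, the probe set rule, the variance prior, array weights, scaling, replicate blocks and the arrays fitted. The probe set rule could not change the values of the ER genes, which have a single probe set each. With 18851 named probe sets for 18850 genes, a call kept under that rule is no check. A summed marker signal is the log2 of the summed linear signals. RefSeq promoters (GRCm38.p6) were searched on both strands.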

Additional observations from a re-analysis of the deposited data

Results flagged for a closer look

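Within the 136 groups of 4 arrays formed by the 34 ER genes, 10 single arrays lay far from the other 3 of their group by Dixon's test, where chance gives about 1 in 20. Of these 10 values, 5 were on array WT + TNFa 2. There Eif2ak3 was 8.45 log2 against 7.94 to 8.01 on the other 3 arrays, Edem2 was 11.37 against 11.13 to 11.17, and Sdf2l1 was 9.46 against 9.36 to 9.38. On the same array Sel1l was 7.01 against 7.39 to 7.46, and Sec61b was 10.37 against 10.51 to 10.54. Ern1 had a low array, WT + TNFa 3, at 8.83 against 9.02 to 9.05, and a high one, mutant 1, at 8.98 against 8.78 to 8.81. Pdia5 was 8.7 on WT + TNFa 1 against 8.55 to 8.57. Herpud1 was 10.58 on mutant + TNFa 3 against 10.51 to 10.52, and Sec61a1 was 11.43 on mutant 2 against 11.54 to 11.55.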

How the results depend on the processing

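Of 49 called pairs of a named gene and a comparison, 15 kept the call under all alternatives run, 34 lost it under at least 1, and 0 changed direction while called; 17 uncalled pairs passed under at least 1. Called counts over all genes and over the ER genes moved as follows. Without the filter the ER genes called were 1 for TNFa in mutant, 0 for TNFa in WT and 0 for the averaged genotype effect, against 2, 2 and 1. With the 60th percentile filter they were 5 for averaged TNFa, against 3, and 1 for genotype without TNFa, against 0, and 3 genes in all were called for the difference, against 1. A variance trend with robust fitting called 4 ER genes for TNFa in mutant, 1 for genotype without TNFa, and 5 genes in all for the difference. Array weights called 4 ER genes for TNFa in mutant, 4 in WT (1 up, Sec11c, and 3 down, Edem1, Ern2 and Herpud1), 7 for averaged TNFa and 1 for genotype without TNFa. Over all genes, array weights called 1095 for TNFa in mutant, against 704, 617 for genotype with TNFa, against 317, 443 without TNFa, against 292, 1072 for the averaged genotype effect, against 692, and 3 for the difference. Centring on array medians called 1 ER gene, Hspa5, for genotype without TNFa. It also changed the called ER genes that were higher to 50% for TNFa in WT (2 called) and for averaged TNFa (4 called: Hyou1 and Sec11c up, Edem1 and Ern2 down), against 100% uncentred. With only the compared groups fitted, TNFa in WT called 720 genes, against 1269, and 0 ER genes, and genotype with TNFa called 185.

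Whether equal sample numbers mark arrays of a shared origin is not stated, and correlations between arrays cannot settle it. Of 24 same-numbered pairs, 5 had a correlation of deviations over 0.1 (range −0.305 to 0.279), and 2 of 16 arrays correlated best with their own number. Only 8 of the 24 pairs lie within a genotype, and 1 of those 8 was over 0.1 (range −0.304 to 0.194). With a replicate block the ER genes called were 1 (Hyou1) for TNFa in WT and 0 for the averaged genotype effect, and the difference called 0 genes. With a replicate block within genotype they were 0 for TNFa in mutant (Sec11c at adjusted p = 0.0547 and Hyou1 at 0.0624) and 0 in WT, and the difference again called 0 genes. Leaving out each array in turn, the ER genes called ranged from 1 to 4 for TNFa in mutant, 0 to 3 in WT, 2 to 6 averaged, 0 to 1 for genotype with TNFa, 0 to 1 without it, 0 to 2 averaged and 0 to 0 for the difference. The counts over all genes then ranged from 504 to 900, 955 to 1430, 1509 to 2077, 192 to 340, 198 to 435, 523 to 838 and 0 to 4 in the same order. The cause of these moves was not tested. The 4 arrays a group limit the precision.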

Other observations

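Single arrays stood high or low over the ER genes as a set. Mutant 3 was the highest array of its group for 19 of the 34 ER genes, and 30.7% of all tested genes were highest there. WT 3 was the lowest of its group for 16 of the 34, and 35.2% of all tested genes were lowest there. Over the 34 genes the median deviation from the group mean was 0.07 log2 on mutant 3 and −0.05 on WT 3.

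Markers of the secretory cells that are not goblet cells also differed between the groups. The summed signal of 4 enteroendocrine markers was 11.78 to 11.95 log2 in mutant with TNFa and 11.56 to 11.78 in untreated mutant, and 11.40 to 11.52 in WT with TNFa and 11.55 to 11.69 in untreated WT. The 4 markers did not move together. Tph1, the first enzyme of serotonin synthesis in the gut, rose with TNFa 3.35-fold in mutant (adjusted p = 2.3e-07) and 1.91-fold in WT (adjusted p = 1.9e-04), whereas the granule protein gene Chga fell in WT by 0.30 log2 (adjusted p = 0.0027). Pyy, the brightest of the 4, averaged 11.51 log2 in mutant with TNFa and 11.46 in untreated mutant, and 11.14 in WT with TNFa and 11.39 in untreated WT. For Chgb these means were 7.64, 7.50, 7.34 and 7.56.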
